A study of Drosophila melanogaster with 8 samples.

Results

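The larval FPKM table holds 16902 rows, of which 15735 are genes with a FlyBase identifier and 1167 carry only a locus number of a transcript assembler (MSTRG followed by a number) and no gene name. These 1167 assembled loci are described here. They were chosen here by that identifier alone. An assembler builds such a locus from reads, so levels can have had a part in which loci exist. Which libraries were assembled is not stated. Comparisons with named genes, which come from an annotation, carry this limit. A table of testis RNA from the same study, with 15612 genes, holds 0 such loci, so their levels are known in larvae only.

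The libraries were made from RNA of whole second instar larvae, enriched for poly(A) tails, with about 80 larvae pooled per library and 2 libraries per genotype, from stocks cultured at 25 degrees Celsius. The tgs1 2-3 larvae carry a small deletion, made with Cas9, that shifts the tgs1 reading frame and is lethal at this stage. The larvae called wild type (WT) carry tgs1 2-4, an allele from the same mutagenesis whose tgs1 and moi reading frames are intact and which the labels describe as acting like a wild-type allele. Both genotypes therefore descend from a Cas9 mutagenesis. Larvae of both sexes may be in a pool, since the labels give no sex, and tgs1 2-3 larvae may still hold Tgs1 supplied by their mothers, which was not measured here. Nothing in the labels says that replicates came from separate cultures, so p-values measure only the spread between these libraries, which may be technical.

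Tgs1 adds further methyl groups to the cap of most small nuclear RNAs of the spliceosome, which gives the trimethylguanosine cap. The U6 RNA lacks this cap. An assembler joins mapped reads into transcripts, and where a transcript meets no annotated gene it receives a number in place of a name. Such loci can be unannotated transcripts, transcribed repeats and transposable elements, extensions of known genes that were not joined to them, or sequence on unplaced scaffolds. FPKM is the number of fragments per kilobase of transcript, scaled to the mapped fragments of the library, so it is a level per length. The table gives no position, length, strand or sequence for an assembled locus, and no gene name, class of RNA or function is assigned to any of them here.

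Facts of the 4 libraries bear on what follows. The moi row, which stands for the mRNA shared by moi and tgs1, had 6.41 and 6.85 FPKM in tgs1 2-3 larvae and 4.64 and 7.42 FPKM in WT larvae. A frameshift does not have to change this level, so it does not check the labels. Rows of the mitochondrial genome held 15.2% and 13.9% of the summed FPKM of named genes in tgs1 2-3 larvae, against 29% and 15% in WT larvae. The summed level of the male-specific roX RNAs was 186 and 146 FPKM in tgs1 2-3 larvae, against 27.5 and 241 FPKM in WT larvae, so WT replicate 1 stands apart on both measures. Larval muscle markers and midgut markers were at 1 FPKM or more in every library (5 of the 5 found for each list). The salivary glue genes summed to 132 FPKM in tgs1 2-3 replicate 2 and to less than 0.35 FPKM in the other libraries. The fat body markers found (6 of 7 listed, with Fbp1 at 0 in at least 1 library) summed to 67.6 and 552 FPKM in tgs1 2-3 larvae, against 52.2 and 94.9 FPKM in WT larvae. The blood cell markers found (2 of 3 listed) summed to 15.7 and 6.45 FPKM in tgs1 2-3 larvae, against 2.46 and 2.71 FPKM in WT larvae. In whole larvae, fewer cells of a type and less RNA per cell cannot be told apart. The part of these differences in the values below was not tested, except that the calls and the counts of loci at 0 were also made without each library.

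The assembled loci made up 1.95% and 2.18% of the summed FPKM in tgs1 2-3 larvae, against 1.22% and 1.61% in WT larvae. Both tgs1 2-3 libraries lay above both WT libraries, which with 2 libraries against 2 gives an exact two-sided permutation p of 0.333, the smallest this design allows. Without the mitochondrial rows the share was 2.29% and 2.52% in tgs1 2-3 larvae and 1.72% and 1.89% in WT larvae, in the same order. The 10 highest loci held 35.7% and 35.3% of the assembled sum in tgs1 2-3 larvae and 38.0% and 41.9% in WT larvae. The sum of the remaining loci was 7530 and 8580 FPKM in tgs1 2-3 larvae, against 4910 and 5650 FPKM in WT larvae, again in the same order.

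Most assembled loci were low. The median of their mean level over the 4 libraries was 1.23 FPKM, against 2.51 FPKM for named genes. A total of 49 loci were at 0 in every library, 830 were above 0 in all 4 libraries and 358 were at 1 FPKM or more in all 4. Loci at 0 numbered 181 and 178 in tgs1 2-3 larvae and 208 in each WT library. A mean of at least 5 FPKM was reached by 215 loci, a mean of at least 10 by 153 and a mean of at least 50 by 35. The comparison of genotypes used rows with a mean of at least 1 FPKM. This kept 682 of the 1167 loci (58.4%) and 9545 of the named genes (60.7%), and the other 485 loci had no test.

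The highest assembled locus, MSTRG.12253, had 934 and 2077 FPKM in tgs1 2-3 larvae and 1034 and 1055 FPKM in WT larvae. Its WT values lie between its tgs1 2-3 values. MSTRG.3812 had 517 and 583 FPKM in tgs1 2-3 larvae, against 366 and 956 FPKM in WT larvae. MSTRG.88 had 430 and 431 FPKM in tgs1 2-3 larvae, against 274 and 585 FPKM in WT larvae. In both loci the WT libraries lie on either side of the tgs1 2-3 libraries, with the higher value in replicate 2. The same held for MSTRG.57 (385 and 290 FPKM in tgs1 2-3 larvae, 255 and 436 FPKM in WT larvae), MSTRG.80 (332 and 279 FPKM in tgs1 2-3 larvae, 194 and 412 FPKM in WT larvae) and MSTRG.44 (186 and 167 FPKM in tgs1 2-3 larvae, 117 and 240 FPKM in WT larvae). MSTRG.10878 had 408 and 226 FPKM in tgs1 2-3 larvae and 234 and 318 FPKM in WT larvae. None of these 7 loci differed beyond the spread between replicates (limma, Benjamini-Hochberg adjusted p from 0.666 to 0.995).

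MSTRG.4269 was the only one of the 10 highest loci whose 4 values all stood above 0 and whose genotypes did not overlap. It had 232 and 350 FPKM in tgs1 2-3 larvae, against 63.6 and 75.3 FPKM in WT larvae. Its log2 change was 2.02 ± 0.29 (SE, n = 2 per genotype), with an adjusted p of 0.141 in limma, so it did not pass. The other members of the 10 highest are MSTRG.79 and MSTRG.89, both of which share values with a neighbour.

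Values that are the same to the last digit in one library, at 1 FPKM or more, were shared by 12 assembled loci in 6 pairs of consecutive numbers, and by 4 named rows. MSTRG.79 and MSTRG.80 had identical values in 3 libraries, but in WT replicate 2 MSTRG.79 was listed at 0 where MSTRG.80 had 412 FPKM. MSTRG.89 equalled MSTRG.88 in replicate 1 of both genotypes and was listed at 0 in replicate 2 of both. MSTRG.14980 and MSTRG.14981 alternated in the same way. MSTRG.14980 had 8.14 and 0 FPKM in tgs1 2-3 larvae and 6.98 and 13.5 FPKM in WT larvae, while MSTRG.14981 had 0 and 8.62 FPKM in tgs1 2-3 larvae and 6.98 and 0 FPKM in WT larvae. Such pairs are uncertain as separate loci, and a value of 0 in this table can stand beside a twin that is not at 0.

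To ask which loci differ between the genotypes, all 10227 rows with a mean of at least 1 FPKM were fitted together with limma on log2(FPKM + 1), and a call needed an adjusted p under 0.05 and a change of at least 1 on the log2 scale. On this scale a change of a low locus is understated. The fit also draws the spread of each row towards that of rows of like level, most of which are named genes. At 10 to 50 FPKM the median difference between replicates was 0.46 for loci and 0.22 for genes in tgs1 2-3 larvae. In WT larvae it was 0.42 and 0.32, so p-values of loci in this class can be too small. Of all rows, 12 were called (0.117%), with 0.0978% higher and 0.0196% lower in tgs1 2-3 larvae. Of these 12 rows, 11 were assembled loci, 9 higher and 2 lower in tgs1 2-3 larvae, which is 1.61% of the 682 loci tested. The 1 named gene called was TotA, which encodes a stress-induced secreted factor. It had 112 and 84.9 FPKM in tgs1 2-3 larvae, against 0.673 and 1.55 FPKM in WT larvae.

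The count of calls depended on the setting. No locus was called with any one library left out, where a lone library is assumed to vary like the other genotype. With rows at a mean of at least 5 FPKM only, 25 of 215 loci were called, against 4 of 5951 named genes. Each of the 11 loci kept its direction and a change of at least 1 on the log2 scale without each library in turn. Their genotypes do not overlap, so leaving out a library could not turn the direction, and this is no independent support.

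**Figure D1:**
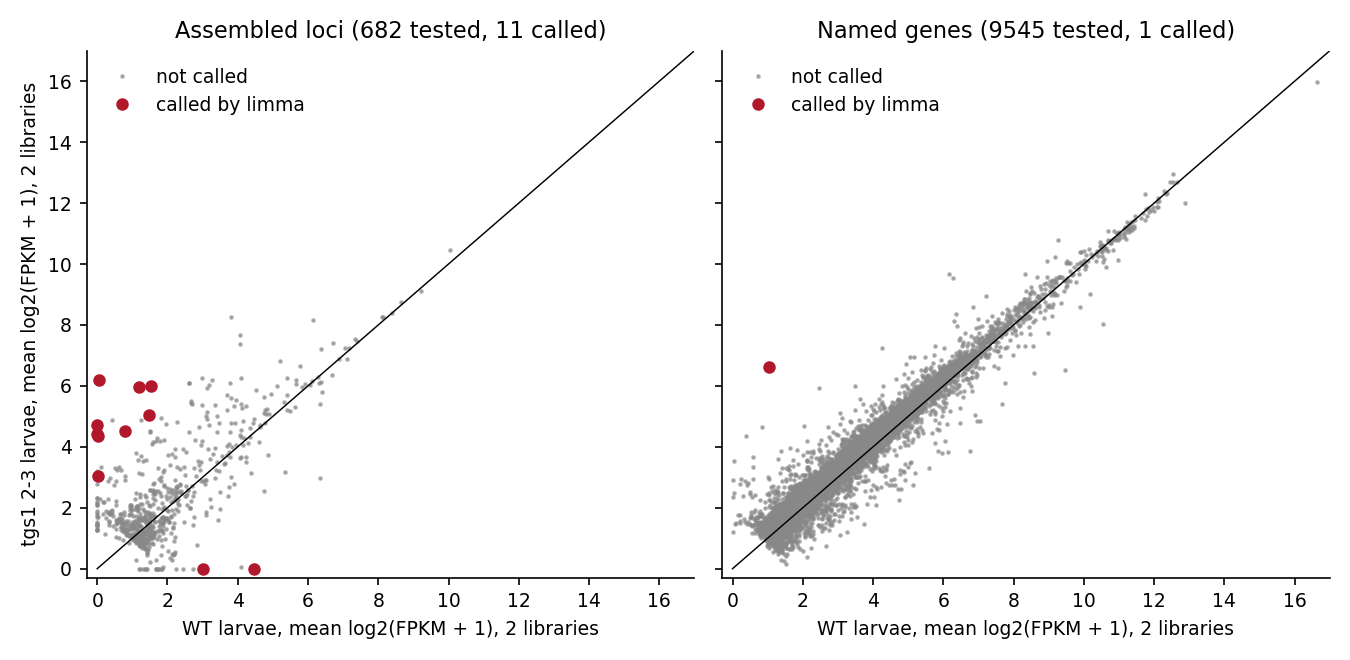
Mean of log2(FPKM + 1) over the 2 tgs1 2-3 libraries (vertical axis) against that over the 2 WT libraries (horizontal axis), for the 682 assembled loci tested on the left and the 9545 named genes tested on the right. The line marks equal means and the larger points are the rows called by limma, 11 among assembled loci and 1 among named genes. The assembled loci lie more widely about the line.

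MSTRG.7767 had the largest change of all assembled loci tested. It had 58.8 and 89.7 FPKM in tgs1 2-3 larvae, against 0.0136 and 0.0465 FPKM in WT larvae. Its log2 change was 6.16 ± 0.27 (SE, n = 2 per genotype; limma, Benjamini-Hochberg adjusted p = 0.0176). It reached the filter at a mean of 1 FPKM only through tgs1 2-3 larvae, so its call is no independent support. Its neighbour in number, MSTRG.7766, had 25.0 and 33.1 FPKM in tgs1 2-3 larvae, against 0.796 and 0 FPKM in WT larvae, and missed the threshold (limma, adjusted p = 0.0538).

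MSTRG.395 had 51.1 and 72.5 FPKM in tgs1 2-3 larvae, against 1.37 and 1.17 FPKM in WT larvae. MSTRG.14178 had 50.7 and 78.1 FPKM in tgs1 2-3 larvae, against 1.65 and 2.18 FPKM in WT larvae. MSTRG.6457 had 27.0 and 37.7 FPKM in tgs1 2-3 larvae, against 1.88 and 1.65 FPKM in WT larvae. In these loci the transcript was present in both genotypes and the mean level was 48.7-fold, 33.6-fold and 18.3-fold higher in tgs1 2-3 larvae. MSTRG.8057 had 17.6 and 27.1 FPKM in tgs1 2-3 larvae, against 0.825 and 0.662 FPKM in WT larvae, a log2 change of 3.72 ± 0.27 (SE).

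MSTRG.8977 had 19.6 and 19.2 FPKM in tgs1 2-3 larvae, against 0.0477 and 0 FPKM in WT larvae. MSTRG.15112 had 6.84 and 7.52 FPKM in tgs1 2-3 larvae, against 0 and 0.0475 FPKM in WT larvae. Both were all but missing in WT larvae, and the tgs1 2-3 replicates lay close together. For the loci named in this and the preceding 2 paragraphs that were called, the limma adjusted p ran from 0.0176 to 0.0458. The remaining 4 called loci were listed at 0 in both libraries of one genotype and stand with the loci of that kind.

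A total of 12 loci were listed at 0 in both WT libraries and at 1 FPKM or more in both tgs1 2-3 libraries. This is 1.03% of the assembled loci, against 0 of the 15735 named genes and 0.071% of all rows. The values chose these loci, so they are described with no fold change, and a call by limma among them is no independent support. MSTRG.5516 was the highest of them, with 23.4 and 27.6 FPKM in tgs1 2-3 larvae. MSTRG.5106 had 16.6 and 24.7 FPKM there. Both are among the loci called by limma, and both lie far above the other 10.

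The next 3 by level were MSTRG.5545 (4.37 and 1.38 FPKM in tgs1 2-3 larvae), MSTRG.3510 (3.99 and 1.28 FPKM) and MSTRG.3168 (1.99 and 2.59 FPKM). MSTRG.5545 and MSTRG.3510 had most of their signal in tgs1 2-3 replicate 1. The other 7 had 1.04 to 1.86 FPKM in every tgs1 2-3 library, and none of the 7 reached the mean of 1 FPKM needed for the test.

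In the reverse direction 3 loci were listed at 0 in both tgs1 2-3 libraries and at 1 FPKM or more in both WT libraries (0.257% of the assembled loci, 0.0237% of all rows). MSTRG.77 had 19.0 and 23.3 FPKM in WT larvae, and MSTRG.66 had 6.998 and 7.21 FPKM. Both are among the loci called by limma, and their WT replicates lay close together. MSTRG.654 had 1.11 and 13.0 FPKM in WT larvae, so its level there rests on replicate 2. The 1 named row of this kind was mir-2279, a microRNA gene, with 1.54 and 1.15 FPKM in WT larvae.

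The limit of 1 FPKM cuts through a continuous range. Loci at 0 in both WT libraries and above 0 in both tgs1 2-3 libraries numbered 24, and the lower of the tgs1 2-3 values was 0.917 FPKM just outside the limit and 1.04 FPKM just inside it. In the other direction 11 loci were at 0 in both tgs1 2-3 libraries and above 0 in both WT libraries, with 0.620 FPKM just outside and 1.11 FPKM just inside. At a limit of 2 FPKM, 2 loci remained in the first direction, and with under 0.1 FPKM in place of exactly 0 there were 26. Leaving out 1 library raised the counts to between 25 and 41 loci in the first direction and between 8 and 25 in the second, since 1 library fewer then had to meet the condition. The depth behind a 0 is not known, because the values carry no counts, so 0 means listed at 0 and not absent.

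**Figure D2:**
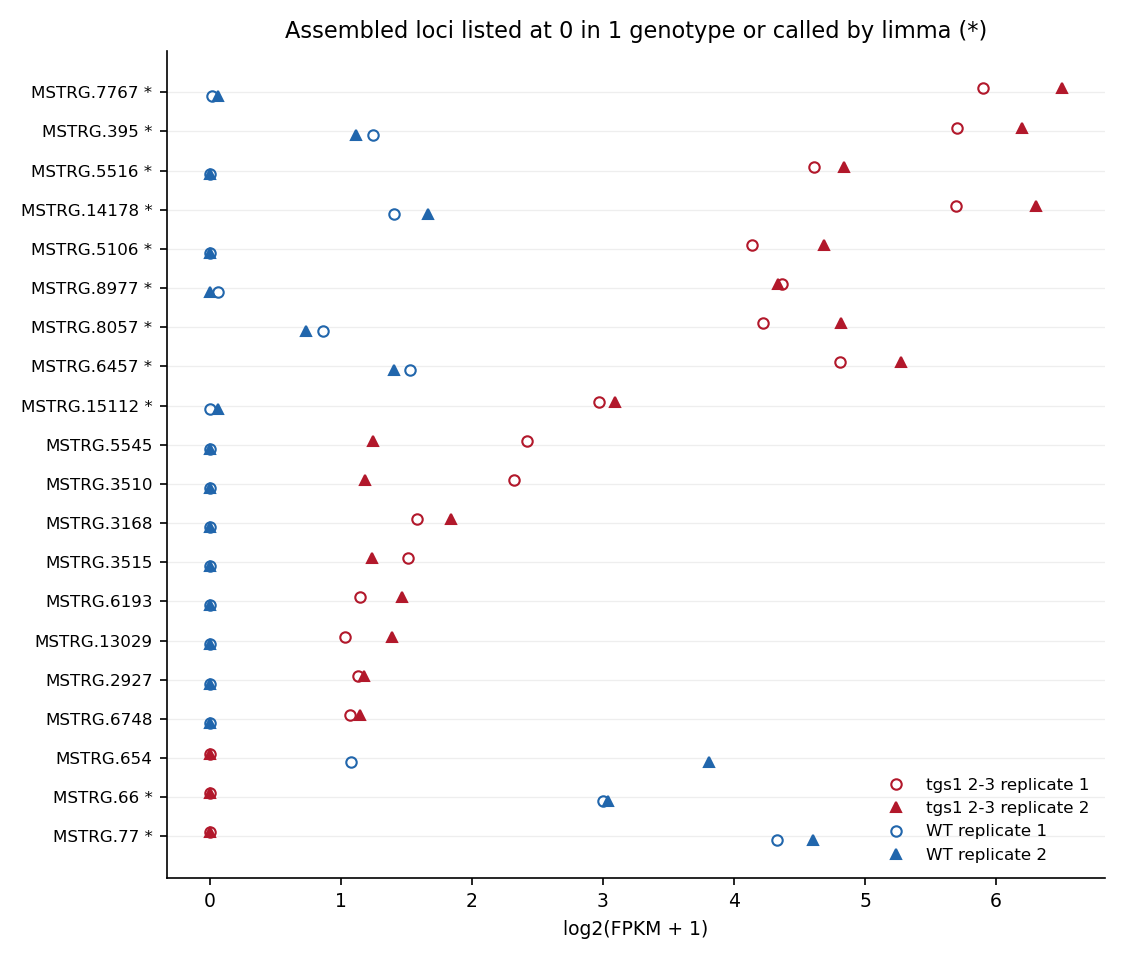
Level of each locus in each larval library, as log2(FPKM + 1), for the assembled loci called by limma (marked with an asterisk) and for those listed at 0 in both libraries of one genotype and at 1 FPKM or more in both of the other (the 10 highest with WT at 0 and all 3 with tgs1 2-3 at 0). MSTRG.7767 stands highest in tgs1 2-3 larvae, at 58.8 and 89.7 FPKM, and MSTRG.77 at the bottom is listed at 0 there.

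The falls named by the rule include 2 more loci. MSTRG.14746 had 0.0925 and 0 FPKM in tgs1 2-3 larvae, against 4.51 and 51.3 FPKM in WT larvae. MSTRG.3701 had 0 and 0.00472 FPKM in tgs1 2-3 larvae, against 4.74 and 11.8 FPKM in WT larvae. The WT values of MSTRG.14746 differ more than 10-fold from each other, and neither locus passed (limma, Benjamini-Hochberg adjusted p of 0.466 and 0.128).

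Over all loci tested, changes were wider than among named genes. How far this follows from building the loci out of reads was not tested. The median log2 change was 0.21 for assembled loci and 0.25 for named genes, but it differed by level. At 1 to 2 FPKM it was -0.02 for loci and 0.15 for genes, at 5 to 10 FPKM 0.58 for loci and 0.29 for genes, and at 10 to 50 FPKM 0.87 for loci and 0.29 for genes. The median absolute log2 change was 0.53 for assembled loci and 0.30 for named genes. Both tgs1 2-3 libraries lay above both WT libraries in 246 loci (36.1%), against 42.7% of all rows tested, and below them in 121 loci (17.7%), against 5.35% of all rows. The log2 change was 2 or more in 70 loci (10.3%; 0.968% of all rows, 0.304% of named genes) and a change of at most -2 in 12 loci (1.76%; 0.293% of all rows). An unadjusted p under 0.05 in limma was seen in 200 loci (29.3%), against 8.96% of all rows and 7.5% of named genes. Of these, 163 were higher in tgs1 2-3 larvae, where the share of all rows was 7.95%, and 37 were lower, where it was 1.01%. Scaling by the median of ratios moved the median log2 change of all rows to -0.01 and that of the assembled loci to -0.01, so a general shift towards higher values in tgs1 2-3 larvae depends on the scaling. The share of loci at an unadjusted p under 0.05 was then 28.9%, against 4.27% of named genes. Such shares carry the limit that the fit draws the spread of loci towards that of named genes.

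The difference from named genes was seen at like level. Among rows with a mean of 10 to 50 FPKM, 37 of 118 assembled loci (31.4%) had a log2 change of at least 2, against 10 of 2804 named genes (0.357%). Of the 11 called loci, 8 are in this class. Among rows with a mean of 5 to 10 FPKM it was 13 of 62 loci (21%), against 0.471% of named genes. At 1 to 2 FPKM it was 2 of 290 loci (0.69%), against 0 of 1199 named genes. The added 1 in log2(FPKM + 1) leaves little room for such a change there, so this class cannot place the difference at higher level. In this class 26.2% of the loci lay below WT in both libraries, against 6.01% of the named genes. Among the 35 loci at 50 FPKM or more, 4 had such a rise (11.4%), against 0.391% of named genes.

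Over all rows tested, replicates of assembled loci agreed less well than those of named genes. Over the rows tested and on log2(FPKM + 1), Pearson's r across the 682 loci was 0.80 between the tgs1 2-3 libraries and 0.75 between the WT libraries, and from 0.64 to 0.68 between libraries of different genotype. Across the 9545 named genes it was 0.95 and 0.93 within genotypes, and from 0.93 to 0.95 between them. Assembled loci thus showed a gap between pairs of libraries within and across genotypes that named genes did not show. These correlations are not matched for level. At 1 to 2 FPKM stood 290 of the 682 loci, against 1199 of the 9545 genes. They are also correlations across loci, which are not independent replicates, and the libraries share the same list of loci. That list may itself have been assembled from reads of these libraries, which the sources used here do not state.

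The median difference between replicates was 0.28 on the log2 scale in tgs1 2-3 larvae and 0.37 in WT larvae for assembled loci, and 0.21 and 0.34 for named genes in tgs1 2-3 and WT larvae. At a mean of 1 to 2 FPKM loci and genes were close, with 0.25 for each in tgs1 2-3 larvae and 0.32 for each in WT larvae. At 10 to 50 FPKM the median difference in tgs1 2-3 larvae was 0.46 for loci and 0.22 for genes, and in WT larvae 0.42 for loci and 0.32 for genes. At 50 FPKM or more it was 0.45 for loci and 0.25 for genes in tgs1 2-3 larvae, and 0.83 for loci and 0.36 for genes in WT larvae. The differences of named genes changed little with level, while those of assembled loci were larger at high level. The class at 50 FPKM or more holds only 35 loci. MSTRG.79 and MSTRG.89 are among them, whose values of 0 stand beside a twin that is not at 0.

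**Figure D3:**
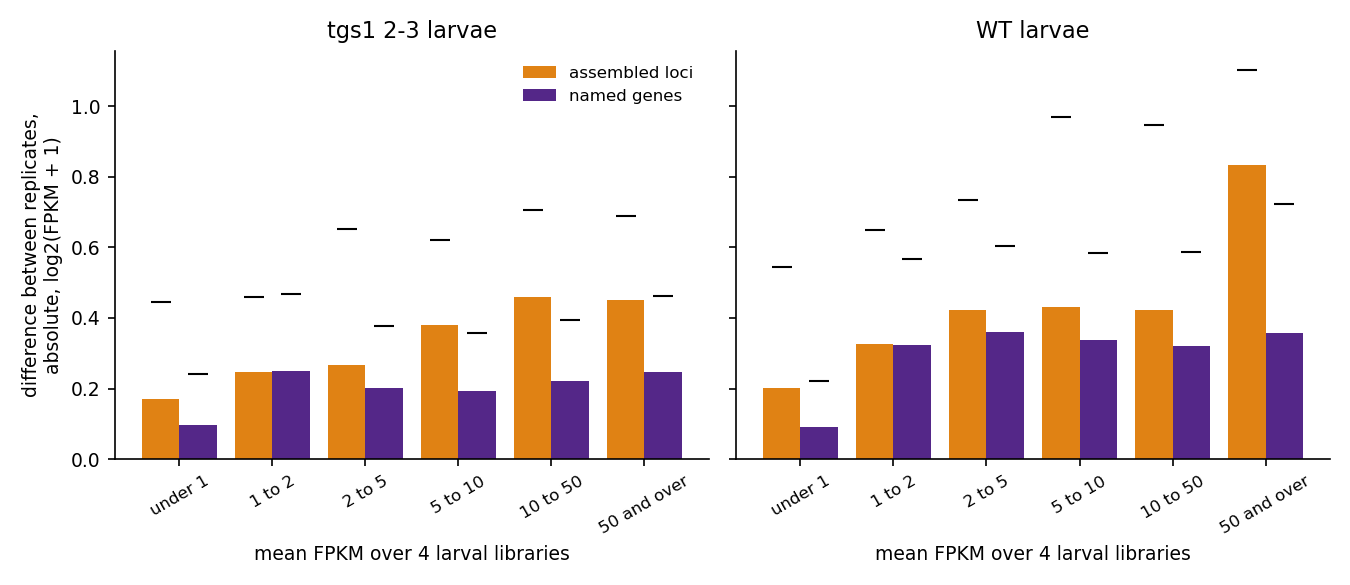
Median absolute difference between the 2 replicates of a genotype, in log2(FPKM + 1), by class of mean FPKM over the 4 larval libraries, for tgs1 2-3 larvae on the left and WT larvae on the right. Bars are medians over assembled loci or named genes and the black marks are the 75th percentiles. At 50 FPKM or more in WT larvae the median is 0.83 for assembled loci (35 loci) and 0.36 for named genes.

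Many loci shared 1 profile across the libraries, which was noticed after their values were seen and so has no test. MSTRG.12443 had 21.7 and 30.4 FPKM in tgs1 2-3 larvae, against 2.84 and 2.96 FPKM in WT larvae. As shares of the sum of its 4 values this is 37.4% and 52.6% in tgs1 2-3 larvae and 4.90% and 5.11% in WT larvae. Of the 682 loci tested, 22 (3.23%, itself included) had each of the 4 shares within 3 percentage points of these, against 1 of the 9545 named genes. That gene was dysf, a transcription factor of tracheal fusion cells, with 11.8 and 18.0 FPKM in tgs1 2-3 larvae and 1.55 and 2.75 FPKM in WT larvae.

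The 22 loci differed widely in level, with means from 1.45 to 91.0 FPKM. Their mean levels in tgs1 2-3 larvae were 6.24-fold to 18.3-fold those in WT larvae, a range that the choice by shares confines. The highest was MSTRG.7, with 134 and 199 FPKM in tgs1 2-3 larvae, against 17.6 and 13.8 FPKM in WT larvae. MSTRG.10144 had 64.2 and 89.5 FPKM in tgs1 2-3 larvae, against 6.60 and 7.19 FPKM in WT larvae. MSTRG.12613 had 60.3 and 85.5 FPKM in tgs1 2-3 larvae, against 8.44 and 9.01 FPKM in WT larvae. One of the 22, MSTRG.6457, was called, and MSTRG.2972 and MSTRG.2973 are among the pairs with identical values and are not independent. Whether these loci share sequence was not tested, because the table gives none.

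**Figure D4:**
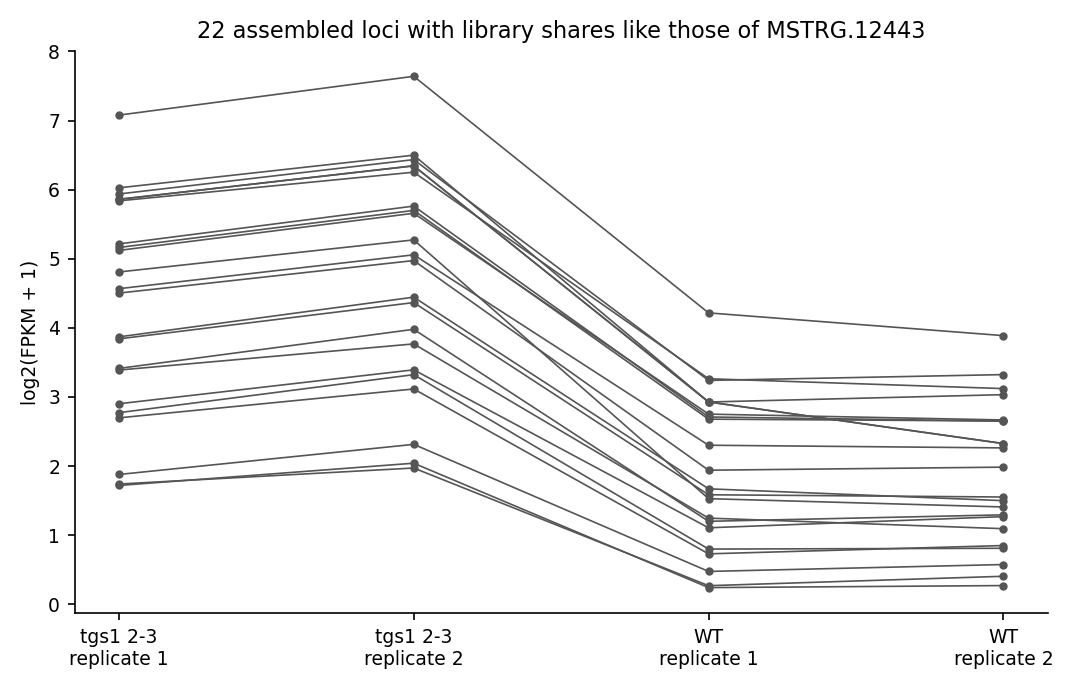
Level of 22 assembled loci in each larval library, as log2(FPKM + 1), chosen because the shares of their 4-library sum lie within 3 percentage points of those of MSTRG.12443. Each line is a locus, the highest being MSTRG.7 at 134 and 199 FPKM in tgs1 2-3 larvae and 17.6 and 13.8 FPKM in WT larvae.

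Many locus numbers are consecutive. The 1167 loci fall into 723 runs of consecutive numbers, of which 550 hold a single locus, while 22 runs of 5 or more hold 264 loci. The longest run is MSTRG.29 to MSTRG.114, with 86 loci, 55 of them tested. Of these, 16 lay higher in both tgs1 2-3 libraries than in both WT libraries and 5 lay lower, where 42.7% of all rows tested lay higher and 5.35% lower. The run holds both called loci that were lower in tgs1 2-3 larvae (MSTRG.66 and MSTRG.77), and 6 of the 10 highest loci. In the run MSTRG.15101 to MSTRG.15115, 12 of 13 tested loci lay higher in both tgs1 2-3 libraries than in both WT libraries, with a median log2 change of 1.38 and 1 call (MSTRG.15112). Its highest locus, MSTRG.15106, had 33.8 and 49.5 FPKM in tgs1 2-3 larvae, against 5.73 and 5.35 FPKM in WT larvae. In the run MSTRG.1 to MSTRG.27, 8 of 14 tested loci lay higher in both tgs1 2-3 libraries and 0 lay lower, with 0 calls. The counts were 3 higher and 3 lower of 7 tested in MSTRG.2887 to MSTRG.2901, and 2 higher and 0 lower of 7 tested in MSTRG.15150 to MSTRG.15156. These runs were picked out after their values were seen.

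Positions of the loci can be read only indirectly. Rows of the table follow the assembler's numbers, so the named genes listed before and after a locus were taken to bracket it, and 531 loci stood between genes of the same chromosome arm within 100000 bases of each other. The other 636 loci were not placed, among them all those numbered under 1516, for which the order of the rows does not allow it. When named genes were placed in this way, 89.9% came out on their own arm. In the same check 88.5% lay within the bracket widened by 100000 bases on each side. The refusals used for loci were not applied in it. It does not measure how often the genes listed beside a locus are its nearest ones. The named rows' coordinates equal those of the BDGP6.54 annotation for 99.2% of the genes found in it, and they are given as the table has them. Of the placed loci, 36 were on 2L, 106 on 2R, 135 on 3L, 117 on 3R, 4 on chromosome 4, 127 on X and 6 on Y. Brackets on 2L past the first on 2R were also refused, so the 2L count is lowered by the method. Named rows numbered 3073 on 2L and 3137 on 2R.

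Several of the loci described above could be placed. MSTRG.7766 and MSTRG.7767 are listed between CR46031 (3L, 14424501 to 14425926) and CG9592 (3L, 14517825 to 14518475). Both genes were under 0.5 FPKM in every library. MSTRG.5516 is listed between CG9826 (2R, 22840739 to 22842977) and CG3649 (2R, 22845977 to 22847911). CG9826 had 5.46 and 6.95 FPKM in tgs1 2-3 larvae, against 5.61 and 8.49 FPKM in WT larvae, and CG3649 was under 0.1 FPKM throughout. The locus and its neighbours thus differed in their pattern, since MSTRG.5516 was listed at 0 in WT larvae.

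MSTRG.14178 is listed between rut (X, 14787478 to 14826073), which encodes an adenylyl cyclase, and CG14408 (X, 14826867 to 14832033). The gene rut had 2.20 and 2.91 FPKM in tgs1 2-3 larvae, against 1.30 and 2.79 FPKM in WT larvae. CG14408 had 3.84 and 3.80 FPKM in tgs1 2-3 larvae, against 2.36 and 3.48 FPKM in WT larvae. MSTRG.8057 is listed between Lasp (3L, 16676406 to 16711677), an actin-binding protein gene, and CR45179, which lies within the span of Lasp. Lasp had 8.54 and 7.87 FPKM in tgs1 2-3 larvae, against 6.49 and 6.51 FPKM in WT larvae. None of these neighbours was called.

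Other loci are listed with a highly expressed gene on at least 1 side. MSTRG.12253 is listed between Jon99Cii (3R, 29923754 to 29924615), a serine protease gene of the gut, and TkR99D. Jon99Cii had 6595 and 9557 FPKM in tgs1 2-3 larvae and 4667 and 7542 FPKM in WT larvae. TkR99D was low, with 1.08 and 1.20 FPKM in tgs1 2-3 larvae and 0.720 and 1.08 FPKM in WT larvae. MSTRG.3812 is listed between CG30025 (2R, 11353564 to 11354373) and epsilonTry (2R, 11345237 to 11346066), a trypsin gene. These genes are listed in the reverse of their order on the arm. The gene epsilonTry had 1158 and 2412 FPKM in tgs1 2-3 larvae, against 881 and 2270 FPKM in WT larvae, a different order of libraries from MSTRG.3812. CG30025 had 616 and 655 FPKM in tgs1 2-3 larvae, against 520 and 1052 FPKM in WT larvae, which is the order of libraries seen in MSTRG.3812. MSTRG.10878 is listed between CG7714 and CG7715 (3R, 18727573 to 18728468). CG7714 had 426 and 223 FPKM in tgs1 2-3 larvae, against 200 and 288 FPKM in WT larvae. MSTRG.14746 is listed between RpS10b (X, 19598031 to 19599806), a ribosomal protein gene, and CG14220 (X, 19599803 to 19601851). The spans of these genes overlap, so the bracket holds no interval between them. RpS10b had 1301 and 1432 FPKM in tgs1 2-3 larvae and 1448 and 1430 FPKM in WT larvae.

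MSTRG.3168, listed at 0 in WT larvae, stands between Ady43A (2R, 7243024 to 7245776), an adenosine kinase gene, and Gadd45, a stress response gene. Ady43A had 9.40 and 7.83 FPKM in tgs1 2-3 larvae, against 2.21 and 1.77 FPKM in WT larvae, a log2 change of 1.68 ± 0.21 (SE) that did not pass (limma, adjusted p = 0.105). Gadd45 had 79.3 and 42.3 FPKM in tgs1 2-3 larvae, against 48.9 and 19.3 FPKM in WT larvae, where the genotypes overlap. Among all placed loci that lay higher in both tgs1 2-3 libraries (84 tested), 40 had at least 1 neighbour that also did and 8 had one that lay lower. Of the 66 that lay lower in both, 9 had a neighbour that also did and 26 had one that lay higher. A locus has up to 2 neighbours, and these are named genes. Of the named genes tested 43.1% lay higher and 4.46% lower, against 42.7% and 5.35% of all rows tested. Loci listed between the same genes share their neighbours. Of 32 placed loci with a log2 change of at least 2, 27 had a tested neighbour. In 5 a neighbour had a change of at least 1, which 2.28% of named genes tested had and 3.71% of all rows.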

How the data were processed

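The authors computed the FPKM values and deposited them in that unit. Their methods give HISAT2 as the aligner and FlyBase as the source of the genome. They name featureCounts, with a count-based test, for expression levels, while the step that turned counts into FPKM and the step that assembled the loci are not given in the sources used here. MSTRG is the default label of StringTie's merge step. Numbers of reads are not known, so precision rests on 2 libraries per genotype. Values were put on log2(FPKM + 1), and named and assembled rows that averaged 1 FPKM or more in the 4 larval libraries were fitted with limma 3.58.1 in R 4.3.3 (lmFit, eBayes with trend, genotype as the only term) with Benjamini-Hochberg adjustment. Python 3.11.15, pandas 2.3.3, numpy 2.4.6 and matplotlib 3.10.9 were used for the rest, and the fit was tested on simulated data.

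The loci named were those at 0 in one genotype and at 1 FPKM or more in both libraries of the other (up to 10 per direction), the 10 highest, the 5 largest rises and 5 largest falls among loci whose genotypes do not overlap, and all called loci. Other loci are said to have been picked after their values were seen. Members, lists and alternatives were chosen with earlier results of these data known. The fit was repeated with each library left out, with a replicate block, without the filter or with one at 5 FPKM, with a pseudocount of 0.1, and after quantile or median-of-ratios scaling. For loci at 0 other limits were tried. The labels number the replicates, but nothing says that a number marks a shared batch. The assembled loci were not analysed in testes, whose table holds 0 of them.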

Additional observations from a re-analysis of the deposited data

How the results depend on the processing

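The calls of assembled loci rest on all 4 libraries. Against 9 higher and 2 lower in tgs1 2-3 larvae (10 and 2 over all rows), the counts were 0 and 0 for loci and for all rows with no filter, where 290 loci had an unadjusted p under 0.05 in limma. They were 0 and 0 (range 0 to 0) with each library left out, where the lone library is assumed to vary like the other genotype. A filter at 5 FPKM gave 24 higher and 1 lower (27 higher over all rows), with 83 of the loci at an unadjusted p under 0.05 and a median log2 change of 0.54. A pseudocount of 0.1 gave 1 lower among loci and 1 among all rows, and quantile normalization gave 5 higher and 1 lower (6 and 1 over all rows). With the replicate number as a block limma called 0 higher and 0 lower among loci and among all rows, and 197 loci had an unadjusted p under 0.05. The replicates share only a number. Over all rows, the differences of replicate 2 minus replicate 1 in tgs1 2-3 and WT larvae correlated at r = -0.12. Crossing the numbers in the block, chosen after seeing the data, also gave 0 calls, with 188 loci at an unadjusted p under 0.05 in limma. Shares of loci at that p were 25.9% with no filter, 38.6% at 5 FPKM, 28.9% with the block and 27.6% crossed. Those of named genes were 6.96%, 8.47%, 5.42% and 5.48%.

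Loci at 0 in WT larvae numbered 12, against 2 at a limit of 2 FPKM, 26 with under 0.1 FPKM in place of 0 and 25 to 41 with a library left out. Loci at 0 in tgs1 2-3 larvae numbered 3, against 6 at a limit of 0.5 FPKM, 5 with under 0.1 FPKM in place of 0 and 8 to 25 with a library left out. The direction of the 11 called loci held under the alternatives of the fit in which they were present. With a library left out it could not change, since the genotypes of these loci do not overlap. The median difference between replicates was recomputed under 4 alternatives and was 0.27 to 0.41 in tgs1 2-3 larvae and 0.40 to 0.56 in WT larvae, the highest in WT with a pseudocount of 0.1.

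Among 301 values of named loci under the alternatives, 190 kept their side of the threshold, 87 lost it, 1 gained it and 23 changed sign. Only a called locus can lose its call, so the 87 all belong to the 11 called loci, while most of the 190 do not. Of the 11, 9 stayed called with a pseudocount of 0.1, 8 after median-of-ratios scaling and 6 after quantile normalization. With a filter at 5 FPKM the 9 of them present stayed called. With no filter or with a replicate block 0 did. The values that changed sign were of high loci with overlapping genotypes. Under median-of-ratios scaling the log2 change was -0.15 for MSTRG.10878, -0.24 for MSTRG.44, -0.30 for MSTRG.57, -0.20 for MSTRG.80 and -0.20 for MSTRG.88. Under quantile normalization it was -0.0089, -0.096, -0.13, -0.014 and -0.011 for MSTRG.10878, MSTRG.44, MSTRG.57, MSTRG.80 and MSTRG.88. With a library left out, the log2 change ran from -0.27 to 0.58 for MSTRG.10878, from -0.16 to 0.99 for MSTRG.12253, from -0.80 to 0.58 for MSTRG.3812, from -0.45 to 0.58 for MSTRG.44, from -0.38 to 0.39 for MSTRG.57, from -0.44 to 0.65 for MSTRG.80, from -0.44 to 0.65 for MSTRG.88 and from -4.05 to 4.70 for MSTRG.89. The cause was not tested.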
